A study of Mus musculus with 4 samples.

Results

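The 381 regions described here are intervals of signal from an antibody to the transcription factor Nrf2 in mouse esophagus. All lay within 1000 bp of the start of a gene. They were chosen by position. Of the 1940 gene rows in the deposited table, 1681 had a single active region, the table's term for called intervals merged between libraries. Rows that shared an interval were reduced to the row with the nearest gene start, which left 1241 single-region intervals, and 381 of these were at most 1000 bp from that start (30.7%). The nearest to the limit inside it were those of Ube2k at 1000 bp, Eef1a2 at 985 bp upstream and Trib1 at 974 bp upstream, with Keap1KO heights of 13, 18 and 18. Just outside it were Gm10648 at 1013 bp upstream, Bag2 at 1014 bp and Gt(ROSA)26Sor at 1052 bp, with 30, 14 and 17.

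Chromatin immunoprecipitation with an Nrf2 antibody (Santa Cruz, sc-13032) and sequencing was done on frozen esophagus of 3 genotypes of the C57BL/6 strain, namely wild-type, Nrf2KO (knockout of the factor itself) and Keap1KO (knockout of its inhibitor). There was 1 library per genotype, and the input DNA, pooled per the labels, has no values in the table. Not given in the sources used here are how the alleles were made, whether the deletions act in the whole animal, and the age, sex and number of animals. No test between genotypes was possible, so a fold describes size in these libraries only, and no comparison below has a replicate check. Values are peak heights, a signal whose unit, depth and scaling are not stated. Depth and genotype cannot be told apart.

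Nrf2, encoded by Nfe2l2, is a transcription factor of the response to oxidants and electrophiles. Keap1 is the adaptor through which it is ubiquitinated and degraded, so that Nrf2 is scarce in unstressed cells and accumulates when Keap1 is lost. In the nucleus it pairs with a small Maf protein and binds the antioxidant response element (ARE), whose core is written here as TGACNNNGC. Known targets encode enzymes that reduce thiols and quinones, conjugate glutathione and supply NADPH, and in the esophagus loss of Keap1 is known for a thickened, heavily keratinized lining. Starts of genes are also where many other factors assemble on open chromatin.

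Stretches of 8 member promoters are shown as examples, picked with their heights known, and do not stand for the members as a whole. They are on the GRCm38.p6 build of RefSeq, 5′ to 3′ on the strand of the gene, all of which are on the plus strand. The RefSeq start site is position 1, and the base before it is -1; distances of intervals elsewhere in the text are from the start in the deposited table. Capitals mark the ARE core on either strand in the first 6, the relaxed core TGANNNNGC in Osgin1 and the cAMP response element TGACGTCA in Maff. Their positions are chr4:116685409-116685528 for Prdx1, chr9:65214490-65214609 for Parp16, chr1:21240405-21240524 for Gsta3, chr1:75236542-75236661 for Dnajb2, chr2:180171369-180171488 for Adrm1, chr2:152105544-152105573 for Srxn1, chr8:119436947-119437066 for Osgin1 and chr15:79347400-79347519 for Maff. The Srxn1 stretch starts 21 bases into the gene, and the other stretches lie upstream of the start.
Prdx1: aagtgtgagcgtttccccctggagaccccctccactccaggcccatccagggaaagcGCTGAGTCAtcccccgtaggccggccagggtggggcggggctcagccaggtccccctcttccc
Parp16: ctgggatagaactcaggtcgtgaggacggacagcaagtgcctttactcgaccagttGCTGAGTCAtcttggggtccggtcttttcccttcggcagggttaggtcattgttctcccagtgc
Gsta3: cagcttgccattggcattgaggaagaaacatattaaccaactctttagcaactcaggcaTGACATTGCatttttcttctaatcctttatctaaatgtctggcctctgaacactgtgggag
Dnajb2: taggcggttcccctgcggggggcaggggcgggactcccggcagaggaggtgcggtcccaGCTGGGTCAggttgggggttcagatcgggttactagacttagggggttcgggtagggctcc
Adrm1: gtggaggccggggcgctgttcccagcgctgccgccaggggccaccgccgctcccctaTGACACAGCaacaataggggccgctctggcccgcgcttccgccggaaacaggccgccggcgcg
Srxn1: agtgggcaGCTAGGTCAgagtgagacacgc
Osgin1: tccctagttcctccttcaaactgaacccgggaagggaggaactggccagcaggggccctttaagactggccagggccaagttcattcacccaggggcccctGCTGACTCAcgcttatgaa
Maff: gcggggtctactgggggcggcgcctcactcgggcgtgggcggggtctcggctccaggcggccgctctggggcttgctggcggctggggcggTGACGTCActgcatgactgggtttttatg

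The match in Prdx1, on the minus strand, begins at position -133 and reads TGACTCAGC, and its centre lay 46 bp from the interval. Parp16 held the same letters at -144, 22 bp from its interval. Gsta3 reads TGACATTGC at -121 (52 bp from the interval), Dnajb2 TGACCCAGC at -101 (3 bp) and Adrm1 TGACACAGC at -162 (70 bp). Srxn1 reads TGACCTAGC at position 29, inside the gene, 20 bp from its interval. The matches of Parp16, Dnajb2 and Srxn1 are also on the minus strand, so the printed letters are their reverse complement. Of 85 ARE core matches in member windows, 35 lay within 100 bp of the interval, as do all those shown. Near cores not shown include Plscr3 (57 bp), with Nrf2KO and Keap1KO heights of 12 and 17, and Slc25a38 (69 bp), with 11 and 14. Of the 381 positions, 353 are multiples of 16 bp. What point of a peak a position stands for, and its width, are not given.

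Over the 381 intervals the wild-type library had a median height of 6 (quartiles 5 and 9, range 0 to 32), the Nrf2KO library 7 (5 and 9, 0 to 17) and the Keap1KO library 17 (13 and 23, 2 to 194). Over the 860 single-region intervals farther from a start the medians were 4, 4 and 17.5. The Keap1KO medians were thus nearly equal near and far from starts, while the heights in the library without Nrf2 were higher near them. A height of at least 10 in Nrf2KO was reached by 88 of the 381 (23.1%) and by 30 of the 860 (3.49%). Of the 20 highest single-region intervals in Nrf2KO, 18 were at gene starts, and of the 20 tallest in Keap1KO, 10 were. These are values of 3 libraries side by side, with no test of the difference.

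**Figure D1:**
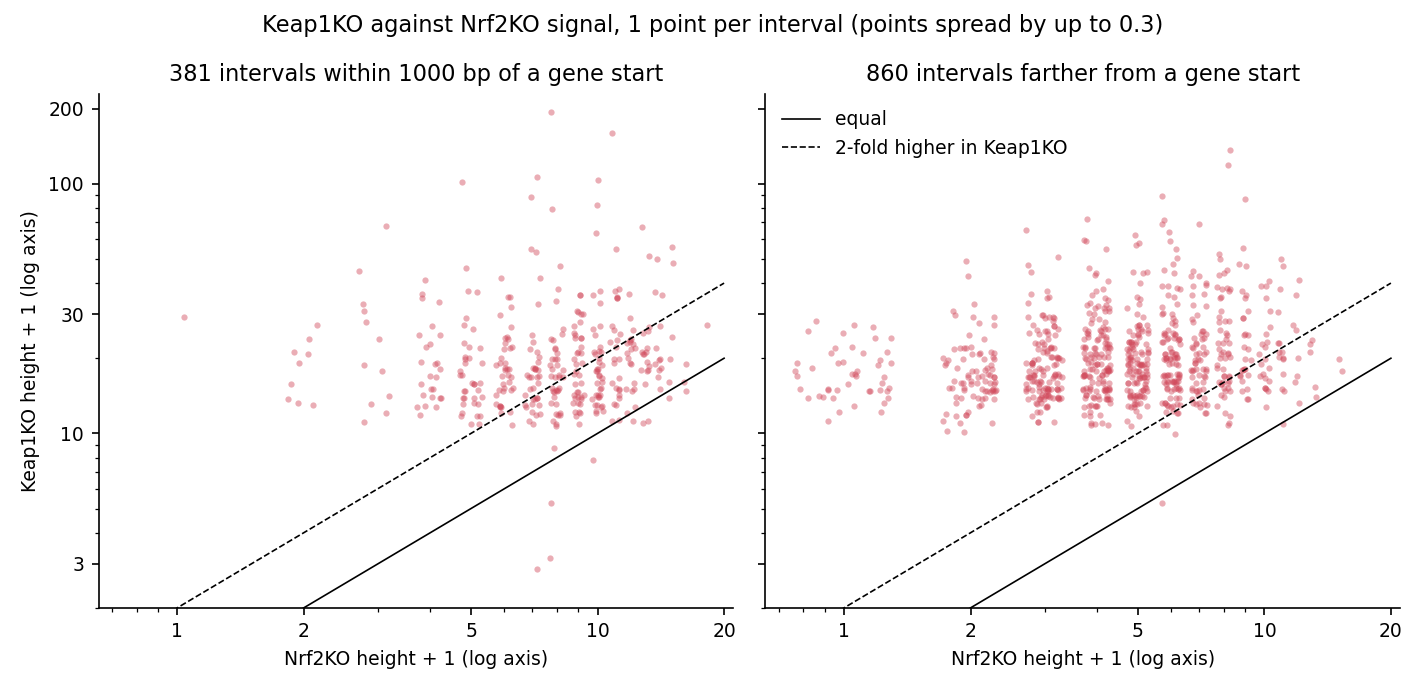
Height in Keap1KO (vertical) against height in Nrf2KO (horizontal), each plus 1 on log axes, for the 381 intervals within 1000 bp of a gene start (left) and the 860 farther away (right), 1 point per interval, spread by up to 0.3 so that whole numbers do not overlap. The gene-start points reach farther right, to a height of 17, and more of them lie between the solid line of equal height and the dashed line of 2-fold.

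Folds use a pseudocount of 1 and are ratios of height plus 1. The Keap1KO height was 2-fold or more that of wild-type at 284 of the 381 intervals (74.5%), where the share over all 1241 was 86.7%, and at least 2-fold lower at 3 (0.787%, with 0.322% over all). The median log2 ratio was 1.39 (1.29 to 1.46; here and below, the order-statistic interval of a median at 95%, which covers the spread over intervals only). Against Nrf2KO, it was 2-fold higher or more at 242 (63.5%, with 83.8% over all) and lower at 2 (0.525%, with 0.161% over all), with a median log2 ratio of 1.26 (1.12 to 1.36). The other 860 had medians of 1.86 and 2.17. Both ratios were thus smaller at gene starts in these libraries. Nearly every interval is listed because it was called in Keap1KO, so its height there was selected upwards.

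These directions depend on taking heights as deposited. With each library scaled to its median over the farther intervals, the Keap1KO heights are multiplied by 0.229, and the median over all 1241 shifts by -1.91 for Keap1KO over wild-type and by -1.90 for Keap1KO over Nrf2KO. The medians at gene starts then became -0.51 and -0.62, and those at the 860 farther intervals -0.03 and 0.27. Of these 860, 857 were called in Keap1KO, so the reference itself was selected on Keap1KO height. The scaled sign restates how gene starts differ from farther intervals and gives no direction between genotypes. On that scale 6 intervals were 2-fold higher or more in Keap1KO than in wild-type and 79 were 2-fold lower or more, and against Nrf2KO the counts were 25 and 117.

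Wild-type and Nrf2KO had a median log2 ratio of 0.00 (-0.15 to 0.00) at gene starts, with wild-type higher at 160 intervals, equal at 40 and lower at 181. Wild-type was higher at 42.0% of them, where the share over all 1241 was 52.1%. It was at least 2-fold higher at 35 (9.19%, with 20.1% over all) and at least 2-fold lower at 35 (9.19%, with 9.19% over all). At the 860 farther intervals the median was 0.26, with 214 at least 2-fold higher (24.9%). With the members split into 4 groups by Keap1KO height, from the tallest down, wild-type exceeded Nrf2KO at 51 of 96 gene-start intervals, then at 37, 31 and 41 of 95 each, with no steady order.

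Heights in Nrf2KO also differed with position among the members. Intervals lay as often upstream (191, 50.1%) as inside the gene (190), at a median of 247 bp from the start. The Nrf2KO median was 9 in the last 100 bp before the start (37 intervals) and 9 in the first 100 bp after it (51 intervals). It was 6 in the bin that ends 1000 bp upstream (54 intervals) and 4 in the bin that ends 1000 bp downstream (35 intervals). The 95% intervals of these medians ran from 6 to 10 and from 7 to 9 next to the start, and from 5 to 8 and from 4 to 7 in the outermost bins, so neighbouring bins overlap. Wild-type medians ran from 6 to 7 and Keap1KO medians from 16 to 21 over the same 8 bins. The share with Keap1KO 2-fold or more above Nrf2KO was 51.4% and 47.1% next to the start, and 74.1% and 80% in the outermost bins.

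**Figure D2:**
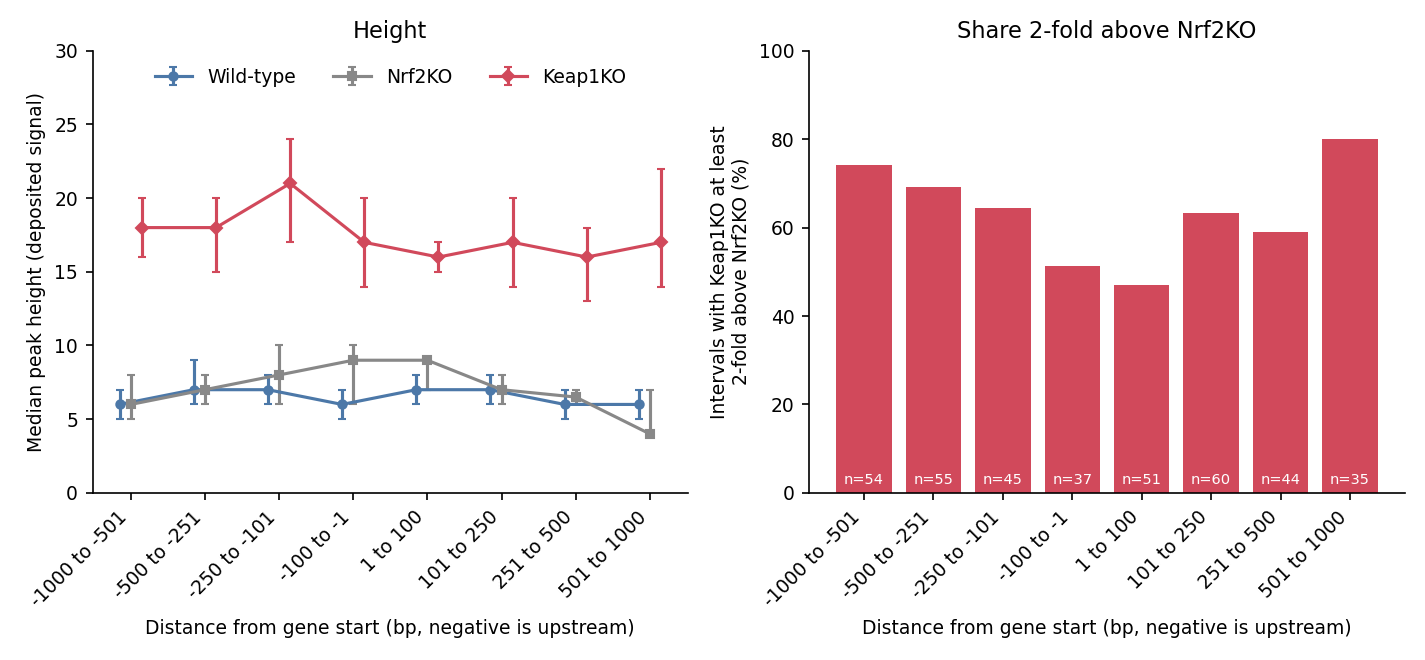
Left, median peak height in each library by signed distance from the gene start in bp (negative is upstream), with 95% order-statistic intervals as bars; right, the share of intervals in each bin with Keap1KO at least 2-fold above Nrf2KO, with n in the bars. The Nrf2KO median peaks at 9 on both sides of the start, and the share is lowest there, at 51.4% and 47.1%.

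An interval can serve several genes. Of the 381, 175 were listed under 2 or more single-region genes, up to 7, and 54 (14.2%) lay within 1000 bp of starts on both strands. In wild-type, Nrf2KO and Keap1KO the median heights at those 54 were 7, 7 and 16.5, and 6, 7 and 17 at the other 327. Which gene such an interval acts on is not shown by these data. By RefSeq, 336 members were protein-coding genes, 29 were long noncoding RNA genes, and 12 were not matched.

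Calls of an interval in a library are the authors'. Of the 381, 372 were called in Keap1KO (97.6%, with 99% over all 1241), 24 in wild-type (6.3%, with 3.22% over all) and 0 in Nrf2KO (0% over all). The 24 made up 60% of the 40 wild-type calls (exact Clopper-Pearson 95% interval 43.3 to 75.1), while gene starts held 30.3% of the 1229 Keap1KO calls (27.7 to 32.9). Wild-type calls without a Keap1KO call numbered 9 at gene starts (2.36%, with 0.967% over all), of 12 in all. With a stricter call, at least the median height of called intervals in that library, 12 wild-type and 203 Keap1KO calls were left.

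The 15 intervals called in both libraries (3.94%, with 2.26% over all) ranged widely in Keap1KO height. Heights are given in the order wild-type, Nrf2KO and Keap1KO. Txn1 had 25, 7 and 194, Prdx1 20, 9 and 103 and Nfe2l2 17, 7 and 78. The interval nearest to Gm12758, which is also listed under the glycolytic gene Gpi1, had 32, 4 and 101. Trim16, a member of the tripartite motif family, had 17, 10 and 54 at 19 bp into the gene, and Tmem57 12, 2 and 32. At these 6 the order was Nrf2KO, wild-type, Keap1KO from lowest to highest. The same order held at Rhbdd3, with 15, 9 and 36, at Eif3b, a translation initiation factor subunit, with 12, 9 and 32, at Nars, an asparaginyl tRNA synthetase, with 12, 10 and 23, and at Psma1 with 11, 8 and 13. Thrap3 had 12, 12 and 20 and Nfx1 10, 14 and 15, and wild-type was the highest at Usp3 (21, 6 and 16), Asxl2 (14, 8 and 11) and Ets2 (13, 9 and 11).

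At the 9 called in wild-type only, wild-type was the highest library at every one, which the choice by call favours. They were Ppm1a (17, 10 and 10), Ufl1 (16, 11 and 10), Arl15 (14, 7 and 10), Ddx3x (14, 5 and 11), Gabpa (13, 7 and 8), Pwp1 (13, 7 and 4), Atl1 (12, 6 and 2), H3f3a (10, 9 and 7) and Tbp (10, 7 and 2). Tbp encodes the TATA-binding protein, H3f3a a replacement histone H3, Ddx3x an RNA helicase and Gabpa an ETS family factor. Keap1KO lay below Nrf2KO at 5 of them, namely Tbp, Atl1, Pwp1, H3f3a and Ufl1.

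Of the 12 tallest gene-start intervals in Keap1KO, 8 were at genes of the Nrf2 pathway lists. Of the 140 genes in 8 lists of the Nrf2 pathway, 62 had a row in the table and 17 were members. The Keap1KO height was 2-fold or more that of wild-type at 16 of these 17 (74.5% of all members) and that of Nrf2KO at 16 (63.5% of all), and wild-type was above Nrf2KO at 13 and below it at 3. Their median heights were 11, 7 and 44, and 6, 7 and 17 at the other 364 members. The median log2 ratio of Keap1KO over Nrf2KO was 3.17, and on the scaled heights it was 1.17, with 13 of the 17 above Nrf2KO; that of Keap1KO over wild-type was 2.31 and, scaled, 0.22. The lists were drawn up with earlier results of these data known and do not stand as independent support.

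In the thioredoxin group, Txn1 encodes thioredoxin, which reduces protein disulfides, Prdx1 a peroxiredoxin, which reduces peroxides, and Srxn1 sulfiredoxin, which repairs oxidized peroxiredoxin. The Txn1 interval lay 341 bp upstream of its start (chr4, position 57956752). Srxn1 had 13, 10 and 158 at 12 bp into the gene (chr2, 152105536). Against Nrf2KO, Keap1KO was 24.4-fold higher at Txn1, 14.5-fold at Srxn1 and 10.4-fold at Prdx1. Wild-type was 3.25-fold above Nrf2KO at Txn1, 2.1-fold at Prdx1 and 1.27-fold at Srxn1, so the second tallest interval in Keap1KO had nearly the same height in wild-type as in Nrf2KO.

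Of the enzymes that reduce quinones and carbonyls, Nqo1 had 12, 6 and 105 at 427 bp upstream (chr8, 107403632) and Cbr3, a carbonyl reductase, 20, 9 and 81 at 723 bp upstream (chr16, 93682496). Akr1b10, an aldo-keto reductase with close relatives in the genome, had 13, 7 and 16, and was the member of the pathway lists where Keap1KO was less than 2-fold above wild-type. Among glutathione transferases, Gsta4 had 8, 2 and 67 (chr9, 78191808), Mgst1 8, 4 and 36, Gsta3 6, 3 and 35, Gstz1 6, 7 and 17 and Gstm2 4, 1 and 12. Reads of Gsta3 and Gstm2 could be split with near-identical family members, and how such reads were placed is not given. Gstz1, which isomerizes an intermediate of tyrosine breakdown, was the transferase with wild-type below Nrf2KO.

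Taldo1, transaldolase of the pentose phosphate pathway, had 8, 2 and 44 at 896 bp into the gene, and Gpx2, an epithelial glutathione peroxidase, 3, 3 and 26. Abcb6, a porphyrin transporter, had 7, 9 and 35. Of the regulators, Osgin1, an oxidative stress growth inhibitor, had 11, 6 and 87 at 138 bp upstream (chr8, 119437024), and the Nfe2l2 interval lay 561 bp into the gene (chr2, 75704080). Maff, a small Maf protein, had 11, 17 and 26 at 190 bp upstream (chr15, 79347488), the highest Nrf2KO value of the 1241 single-region intervals, and Keap1KO was 1.5-fold above it. The Nfe2l2 interval measures antibody signal near its start and does not check the deletion.

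**Figure D3:**
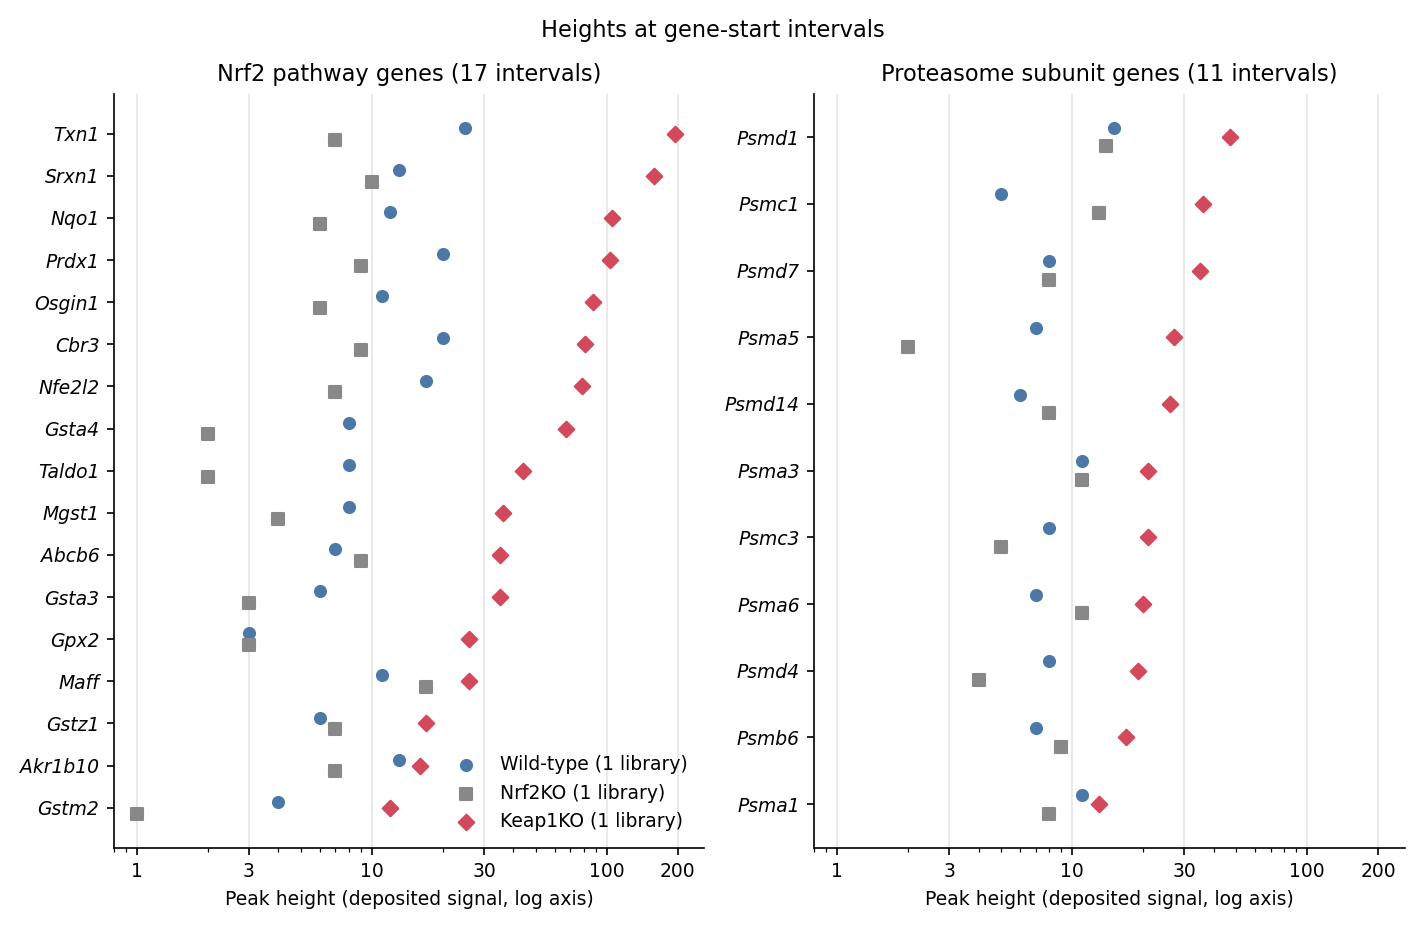
Peak height in each of the 3 libraries (1 per genotype, log axis) for the 17 gene-start members of the Nrf2 pathway lists (left) and the 11 proteasome subunit members (right), ordered by Keap1KO height. On the left Nrf2KO lies lowest in most rows and Keap1KO reaches 194; on the right the grey and blue points change places from row to row and Keap1KO stays at or below 47.

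Proteasome subunit genes were listed near their starts too. Of the 50 genes of that list, 17 had a row and 11 were members. The proteasome degrades ubiquitinated proteins, with a 20S core of alpha and beta subunits and a 19S regulator. Their median heights were 8, 8 and 21, and the Keap1KO height was 2-fold or more that of wild-type at 9 of the 11 (74.5% of all members) and that of Nrf2KO at 7 (63.5% of all). In wild-type 5 of the 11 were higher than in Nrf2KO and 4 were lower. The median log2 ratio of Keap1KO over Nrf2KO was 1.58, and -0.37 on the scaled heights, where 2 of the 11 were above Nrf2KO; over wild-type it was 1.39 and, scaled, -0.52.

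Of the 19S regulator, Psmd1 had 15, 14 and 47, Psmc1 5, 13 and 36, Psmd7 8, 8 and 35, Psmd14, a deubiquitinase, 6, 8 and 26, Psmc3 8, 5 and 21 and Psmd4, a ubiquitin receptor, 8, 4 and 19. In the 20S core, Psma5 had 7, 2 and 27, Psma3 11, 11 and 21, Psma6 7, 11 and 20, Psmb6 7, 9 and 17 and Psma1 11, 8 and 13. Psma5 had the lowest Nrf2KO height and the largest fold over it, 9.33. Psmd1 had the tallest Keap1KO height of the group and also its tallest Nrf2KO height. Adrm1, a further ubiquitin receptor of the 19S regulator that was kept in the list of ubiquitin binding proteins, had 7, 13 and 49. With every gene row kept, the proteasome list had 12 rows within 1000 bp. The Tbp interval (10, 7 and 2), called in wild-type only, is also listed under the subunit gene Psmb1, which is not a member. There Keap1KO was the lowest library.

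Other lists are set beside the shares over all members, 74.5% for a Keap1KO height 2-fold or more that of wild-type and 63.5% for Nrf2KO. Zinc finger protein genes had 11 members (of 468 genes, 33 with a row), of which 10 had a Keap1KO height 2-fold or more that of wild-type and 7 that of Nrf2KO, with wild-type below Nrf2KO at 8 (181 of all 381). On the scaled heights their median log2 ratio of Keap1KO over Nrf2KO was -0.74, and 1.10 as deposited. Their medians were 6, 8 and 23, and Zfp418 (6, 0 and 28) was listed at 0 in Nrf2KO. The heat shock and chaperone list had 4 members of 9 with a row (2-fold or more above Nrf2KO in Keap1KO at 2). Ribosomal proteins had 4 of 8 (at 4) and splicing and RNA-binding proteins 4 of 13 (at 3). The ubiquitin binding list had 6 of 9 (at 4) and that of the mitochondrial ribosome and respiratory chain 2 of 8 (at 1). Translation factors and tRNA synthetases had 2 of 9 (at 2) and immediate early genes, those of AP-1 included, 2 of 8 (at 0). The members Hspb6 and Hspb7 are not in the heat shock list. The tRNA synthetase members Nars (12, 10 and 23) and Mars (7, 11 and 15) are not in the translation list. The 36 cell cycle and DNA repair genes, 22 glycolysis genes, 30 autophagy genes and 17 conjugation and export genes had 0 members each. In the same order only 4, 9, 4 and 4 of these genes had a row, and rows listed under a nearer gene are not counted. With so few rows, the absence of members does not show that such genes lack intervals at their starts. The members Cdc27, Zwint, Bub3 and Pold2 are not in the cell cycle and DNA repair list, and the member Epg5 is not in the autophagy list. The DNA repair genes Rad52 (6, 5 and 14), Fancc (9, 7 and 16), Ercc5 (4, 6 and 12) and Rad23b (6, 9 and 25) are also members outside that first list. These are examples and not a full count.

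Few markers of cell types had any row in the table. Of 20 basal squamous genes 6 had a row and 1 was a member, Itgb1, an integrin (9, 8 and 19). Of 14 fibroblast and endothelial genes 2 had a row and 1 was a member, Vim, an intermediate filament protein (7, 8 and 15). Muscle genes had 2 rows of 20, immune genes 1 of 14 and differentiated squamous genes 0 of 35, with 0 members each. The assay measures bound DNA, so these lists do not check the tissue, and a difference in cell content between genotypes was not tested.

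Several tall intervals were at genes outside the Nrf2 pathway and proteasome lists. Tmc8 had 10, 9 and 62 at 505 bp upstream, and Acyp2, an acylphosphatase, 18, 6 and 54 at 212 bp into the gene. Pir, which encodes pirin, had 12, 6 and 52, Ddit4l, a stress-responsive relative of Ddit4, 7, 7 and 46, and Srsf2, a splicing factor, 9, 12 and 50. Srp19, of the signal recognition particle, had 11, 14 and 55. At Srsf2 and Srp19 wild-type lay below Nrf2KO although Keap1KO was 3.92-fold and 3.73-fold above it.

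Some gene starts had tall intervals in the library without Nrf2. Besides Maff, the highest in Nrf2KO were Osbp (12, 15 and 18), Angptl2 (9, 15 and 15) and Whsc1l1 (9, 15 and 14), followed at 14 by Srp19, Psmd1, Slc25a39 (7, 14 and 23), Nrd1 (7, 14 and 19), Nfx1 and Gm6288 (5, 14 and 13), the last of which was named after its values were seen. At Angptl2 the 2 knockouts were equal and at Whsc1l1 and Gm6288 Keap1KO was the lower. Among members called in Keap1KO with at least the median height of 17, the lowest folds over Nrf2KO were at Osbp (1.19), Ppp2r1a (1.29), Tdrd3 (1.29) and Nrd1 (1.33), followed by Coasy, 5830415F09Rik, Plscr3 and Zfp655. Ppp2r1a, a phosphatase scaffold subunit, had 9, 13 and 17, and Tdrd3 7, 13 and 17. The largest folds were at Zfp418, listed at 0 in Nrf2KO, and at Txn1, Gsta4 (22.7), Gm12758 (20.4), Nqo1 (15.1), Taldo1 (15), Srxn1 and Gm9968 (7, 1 and 26). With a pseudocount of 5 in place of 1 the log2 ratio fell from 4.50 to 3.36 at Gsta4, from 4.35 to 3.56 at Gm12758, from 3.92 to 3.32 at Nqo1, from 3.91 to 2.81 at Taldo1 and from 3.75 to 2.37 at Gm9968. It was then 2.72 at Zfp418, below the 3.06 of Osgin1 and the 2.95 of Prdx1, so the order of these members depends on the pseudocount.

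Promoter sequence was available for 304 of the 381 members as RefSeq windows of 300 bases, from 250 before to 50 after a start. Where a gene had several windows, the one whose start was nearest to the interval was taken. Members' windows were rich in CG pairs. The ratio of observed to expected CG pairs was at least 0.6 in 72.0% of them, against 35.8% of all 32851 windows. It was at least 0.6 in 59 of the 68 windows of members with a Nrf2KO height of at least 10 (86.8%), in 81.4% of those with Keap1KO less than 2-fold above Nrf2KO and in 66.5% of those at least 2-fold above it. The GC box GGGCGG was matched in 65.1% of members and 35.7% of all windows. With such a ratio it was matched in 72.6% of 219 members and 72.3% of all windows.

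The ARE core TGACNNNGC, sought on both strands, was matched in 74 of the 304 windows (24.3%, 19.6 to 29.6), against 12.4% of all windows. With a ratio of at least 0.6 it was matched in 23.3% of 219 members (17.9 to 29.5) and 14.7% of all windows. Over the 304, windows with and without the core had the same median heights (7, 7 and 17). The window held the interval itself in 89 cases, and the core was matched in 34 of these (38.2%, 28.1 to 49.1). In this subset it was matched at 24 of 48 intervals with Keap1KO at least 2-fold above Nrf2KO (50%, 35.2 to 64.8) and at 10 of 41 below that (24.4%, 12.4 to 40.3). Over the 304 the shares were 24.6% and 23.9%, and among the 68 with a Nrf2KO height of at least 10 it was matched in 20 (29.4%, 19.0 to 41.7). Also over the 304, it was matched in 12 of 61 with Keap1KO at least 4-fold above Nrf2KO (19.7%, 10.6 to 31.8). With a Keap1KO height of at least 30 it was matched in 14 of 42 (33.3%, 19.6 to 49.5). The relaxed core TGANNNNGC, which contains the first, was found in 50.7% of members and 41.3% of all windows, and at the 89 in 62.9%.

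The letters TGACTCAGC, an ARE core that also holds the AP-1 element TGANTCA, occurred in 7 member windows (2.3%, 0.931 to 4.69) and in 0.454% of all windows; this form was looked at after the matches were seen. The 7 were Prdx1, Pir, Parp16 (9, 6 and 24), A530013C23Rik (8, 4 and 18), Procr (2, 5 and 17), Usp10 (4, 4 and 16) and Dusp13 (2, 5 and 12). They are named because the letters matched, after their values were seen. At Pir, Procr, Usp10 and Dusp13 the interval lay outside the window, with the match 139 to 468 bp from it. The Keap1KO height was 2-fold or more that of Nrf2KO at all 7 (63.5% of all members), and wild-type was above Nrf2KO at 4. None of the 68 members with a Nrf2KO height of at least 10 and a window had it (exact upper limit 5.28%). Of these 68 windows, 59 had a CG ratio of at least 0.6. With such a ratio the letters were rare, in 1 of 219 members (0.457%) and in 0.255% of all windows. The absence at the 68 cannot be told apart from this composition.

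The 12 tallest members with an ARE core in the window were Srxn1, Prdx1, Nfe2l2, Acyp2, Pir, Srsf2, Adrm1, Ddit4l, 1600002H07Rik (8, 4 and 45), Atf1 (6, 10 and 37), Gsta3 and 3230401D17Rik (3, 10 and 34). At 6 of these, Nfe2l2, Acyp2, Pir, Srsf2, Ddit4l and Atf1, the interval lay outside the window, and the Nfe2l2 core was 819 bp from it. Wild-type was above Nrf2KO at 7 of them, equal at Ddit4l and below at Srsf2, Adrm1, Atf1 and 3230401D17Rik. The windows of Txn1, Nqo1, Cbr3 and Gm12758 held no match to TGACNNNGC, and their intervals lay 329 to 723 bp upstream, beyond the window. Osgin1 held the relaxed core, which in its promoter reads GCTGACTCA on the strand of the gene. The Maff window nearest to its interval held neither core, and its cAMP response element is shown above.

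Other motifs were spread differently. The ETS element CCGGAAG was matched in 18.1% of members (13.9 to 22.9), 8.86% of all windows and 18.7% of those with a CG ratio of at least 0.6. Among the 219 members with such a ratio it was matched in 22.8% (17.4 to 29.0). Where the window held the interval it was matched at 16 of 41 intervals with Keap1KO less than 2-fold above Nrf2KO (39%, 24.2 to 55.5) and at 10 of 48 at least 2-fold above (20.8%, 10.5 to 35.0). The element of nuclear respiratory factor 1, a protein encoded by another gene than Nrf2, was sought as GCGC, any pair of bases and GCGC. It was matched in 14.1% of members, 6.23% of all windows, 16.1% of those with such a ratio and 17.8% of the 219 members with it. In the same order TGANTCA was matched in 7.57%, 7.81%, 3.46% and 5.02% and the cAMP response element in 2.3%, 1.79%, 3.65% and 3.2%. The CCAAT box was matched in 35.2%, 37.4%, 35.7% and 33.8% and the E-box CACGTG in 9.21%, 7.15%, 11.3% and 11.4%. A match is a string of letters in a window, not a bound site.

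**Figure D4:**
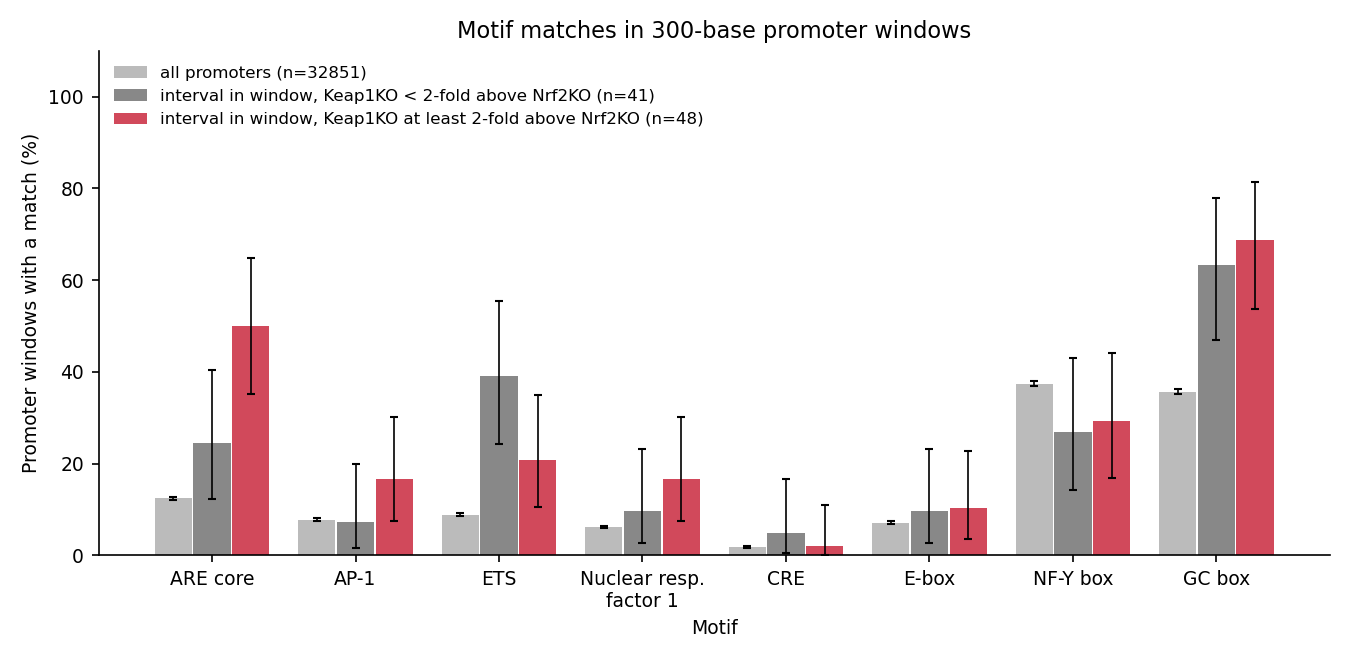
Share of 300-base promoter windows with a match to each motif on either strand, for all 32851 windows, for the 41 members whose window held the interval and whose Keap1KO height was less than 2-fold above Nrf2KO, and for the 48 at least 2-fold above it; bars are exact 95% binomial intervals over windows, and the NF-Y box is the CCAAT box. The ARE core is at 50% in the last group and 24.4% in the second, and the ETS element at 20.8% and 39%. Over all 304 members with a window, not drawn, the same split gave 24.6% and 23.9% for the ARE core.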

How the data were processed

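The deposited table was used as the authors gave it. Per the submitters' processing notes, BWA, MACS2 2.1.0 and build mm10 were used; not given in the sources used here are parameters, depth and scaling. Per the file headers, the values are the average peak height of each gene and library, a signal of unstated unit, and the deposited flags for a called interval and distances to gene starts. All 5043 heights of single-region genes were whole numbers. Positions were computed from gene start, strand and distance, and every interval came out at 1 position.

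Members and lists were chosen with earlier results of these data known. Log2 ratios use a pseudocount of 1. Shares have exact Clopper-Pearson intervals, and intervals cover the spread over regions only. Ratio, interval and motif code was tested on simulated data. Of the 381 members, 369 were matched to RefSeq (GRCm38.p6) by identifier, with both ends within 1000 bp of the table's at 297. Named members were the 12 highest in Keap1KO, those called in wild-type, the 8 largest and 8 smallest folds of Keap1KO over Nrf2KO among called members of at least 17 in height, the 8 highest in Nrf2KO, the 12 highest with an ARE core, members of the pathway, proteasome and cell type lists and the 3 nearest the limit; others were added after their values were seen, and 1 member that the rule names is not reported here. The alternatives changed the pseudocount, fold, distance limit, height filter, scaling, call, row and window. Python 3.11.15, pandas 2.3.3 and scipy 1.17.1 were used.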

Additional observations from a re-analysis of the deposited data

How the results depend on the processing

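No paired analysis was possible because only 1 library was made per genotype, and for that reason none could be left out. Of 289 values computed under an alternative, 226 stayed within their margin, 61 moved and 2 changed sign. The margin was a factor of 1.5 for counts and for ratios of single members. For medians and shares it was the interval of the main value. Among the main results 91 stayed, 41 moved and 2 changed sign. Of the rest, nearly all ratios of single named members under another pseudocount, 135 stayed and 20 moved. In this paragraph A is the ratio of Keap1KO to wild-type, B of wild-type to Nrf2KO and C of Keap1KO to Nrf2KO, and counts are of members 2-fold higher, then lower. The sign changed for the median log2 of A (-0.51) and C (-0.62) on heights scaled to the farther intervals. Counts were then 6 and 79 for A and 25 and 117 for C. That reference was selected on Keap1KO height, so these signs are relative to the farther intervals. A pseudocount of 0.5 gave a median of 1.47 for A. A pseudocount of 5 gave medians of 1.00 for A and 0.93 for C, counts of 7 and 2 for B, and 0 lower for C. The filter on mean height left 250 members, with counts of 186 and 0 for A, 23 and 16 for B and 157 and 0 for C. A 1.5-fold limit gave 6 lower for A, and 80 and 89 for B. A 3-fold limit gave 150 higher for A, 12 and 5 for B, and 140 and 0 for C. The stricter call left 12 wild-type and 203 Keap1KO calls. Within 250 bp, 42.5% of intervals were upstream.

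With the interval in the window the shares were 38.2% for the ARE core, 12.4% for AP-1, 29.2% for ETS and 28.1% for CCAAT. With any window that held the interval, an alternative chosen after seeing the data, they were 37.1%, 17.1%, 28.6% and 29.5%. The relaxed core was at 50.7% and TGACTCAGC, also chosen after seeing the data, at 2.3%. With every gene row kept, the NADPH list had 2 rows, the mitochondrial list 4, autophagy 1 and splicing 7. Protein-coding members alone, likewise added after seeing the data, kept the 3 median heights and 3 median ratios within their margins. The cause of the moves was not tested, except that a filter, a larger fold or a stricter call leaves fewer members and that adding more to both heights brings a ratio nearer to 1. The unknown depth limits every ratio between libraries.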
